A study of Mus musculus with 18 samples.

Results

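The genes of glucose uptake, glycolysis and pyruvate use described here were 35 mouse genes given by name. Measured values were not part of the rule, though results of these data were known when the genes were chosen. They comprised 2 glucose transporters, 9 genes of the upper part of glycolysis, 7 of its lower part, 4 of lactate production and transport, 4 regulators and 9 of pyruvate entry into the mitochondrion. Each was found by its Entrez gene identifier among the 27179 genes of the count tables. All 35 reached 0.5 CPM (counts of a gene scaled to the total of its library) in at least 3 of the 18 samples and so were among the 12797 genes tested. Of these, 34 reached that level in all 18 samples, and Aldoc reached it in 6.

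RNA was sequenced from thymocytes of 9 mice, 3 of each of 3 genotypes, and each mouse gave CD69+ cells sorted as MHC I low and as MHC I high. CD69 marks thymocytes that have received a signal through the T-cell receptor, and MHC I at the surface increases after positive selection, so MHC I high cells are the later fraction. The question was how loss of components of the linear ubiquitin chain assembly complex (LUBAC) alters transcription just after positive selection. Dead cells and cells with CD25, CD44 or markers of NK, B, myeloid, antigen-presenting and γδ T cells were gated out. WT mice were C57BL/6. Hoil ΔCd4 mice carried floxed alleles of Rbck1, the gene of HOIL-1, from a single targeted embryonic stem cell clone, with Cre driven by Cd4, so deletion is limited to cells that have expressed Cd4. Sharpin cpdm mice carry a spontaneous mutation that removes SHARPIN from every cell, came from C57BL/Ka and had only a short backcross to C57BL/6. No treatment was given. The ages of the sequenced mice, and whether the WT mice carried Cre, are not given in the sources used here.

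Glucose enters T-lineage cells through the transporters GLUT1 (Slc2a1) and GLUT3 (Slc2a3), and hexokinase traps it as glucose 6-phosphate. The glycolytic enzymes then convert it to pyruvate, with phosphofructokinase as the main controlled step. Pyruvate is either reduced to lactate and exported, or carried into the mitochondrion and oxidised by the pyruvate dehydrogenase complex, which pyruvate dehydrogenase kinases switch off. Many of these steps have several isoenzymes encoded by separate genes, and T cells are known for raising glucose uptake and glycolysis when they are activated and divide.

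Library totals were 10577966 to 16266128 counts. In MHC I low cells Rbck1 averaged 0.544 CPM in Hoil ΔCd4 mice against 222.5 CPM in WT, and the MHC I high averages were 5.73 and 266 CPM, so the deletion was visible in every Hoil ΔCd4 library. Sharpin averaged 91.3 CPM in WT and 71.5 CPM in Sharpin cpdm MHC I low cells, and since cpdm is a small change within the transcript, its level does not check that label. H2-K1, an MHC I heavy chain, averaged 216 CPM in the MHC I low and 2003 CPM in the MHC I high cells of WT mice. All 9 αβ T-cell markers examined were tested, with summed levels of 5428 to 7188 CPM per library, against 4.12 to 6.62 CPM for 6 B-cell markers, 7.54 to 14.97 CPM for 8 myeloid and dendritic cell markers and 5.91 to 11.8 CPM for 6 thymic epithelial markers. By Xist and Ddx3y all 3 WT mice were female, whereas each mutant group held 1 female and 2 males, so sex and genotype were partly confounded. Of the genes described here, Pdha1, Pdk3 and Pgk1 are on the X chromosome. The MHC I high library of Hoil ΔCd4 mouse 2, a male, had 64.6 CPM of Xist and the highest Rbck1 of its group, 8.94 CPM. So where Hoil ΔCd4 mice are compared with another genotype, it is stated below which calls were lost, or how many remained, without this mouse.

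Levels are first given per length, in RPKM (CPM per kilobase of counted exon), since only these can be compared between genes. Averaged over the 6 groups, Pkm (pyruvate kinase) stood highest at 232 RPKM, followed by Ldha (lactate dehydrogenase A) at 197 RPKM, Aldoa (aldolase A) at 103 RPKM and Eno1 (enolase 1) at 93.0 RPKM. Hk2 (hexokinase 2) at 1.37 RPKM and Aldoc (aldolase C) at 0.276 RPKM stood lowest. Between neighbours in the order the difference was often within the spread between mice: in WT MHC I low cells, Ldhb was at 63.7 ± 3.08 RPKM and Gpi1 at 61.1 ± 0.988 RPKM (SD, n = 3), and Pfkp at 49.2 ± 1.55 RPKM and Pdhb at 49.3 ± 3.86 RPKM. The plot of levels in WT cells shows the whole order.

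**Figure D1:**
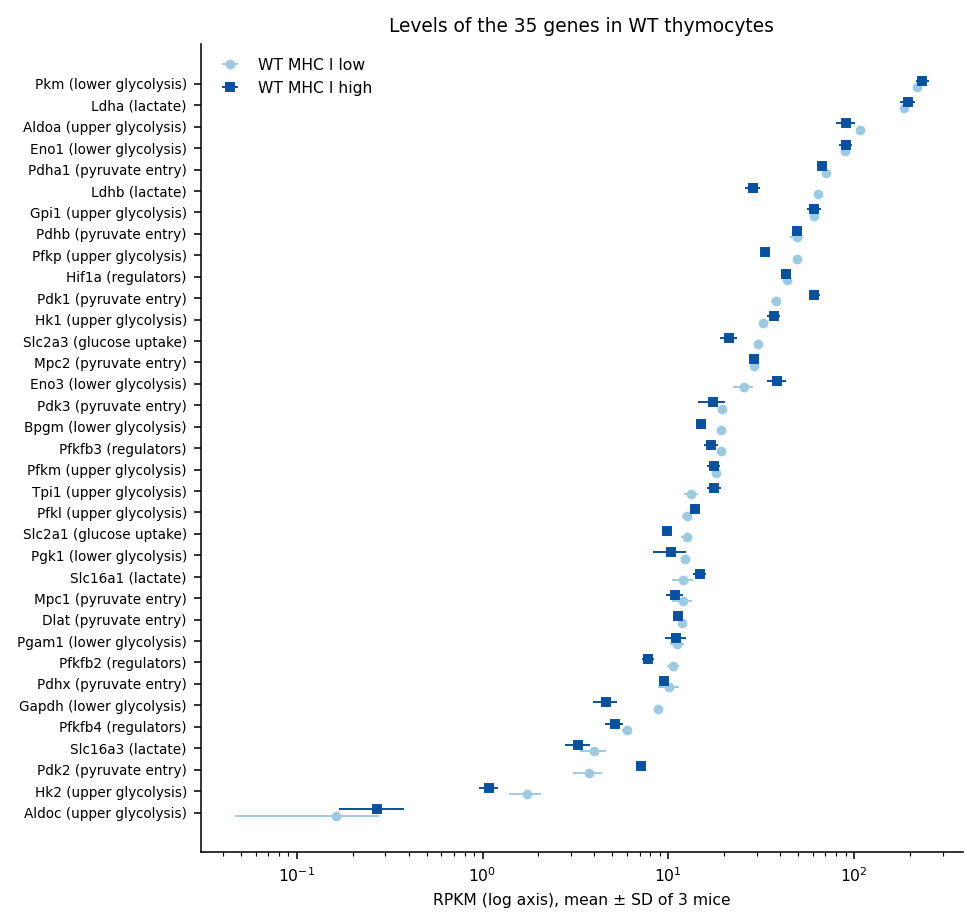
RPKM (log axis) of the 35 genes in WT MHC I low (circles) and MHC I high (squares) thymocytes, mean ± SD of 3 mice, ordered by the MHC I low level. Pkm and Ldha are at the top and Hk2 and Aldoc at the bottom. Ldhb, Pfkp and Gapdh lie lower in MHC I high cells, and Pdk1, Pdk2 and Eno3 lie higher.

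The level of several of these genes depends on how reads that match more than one place were counted, which is not given in the sources used here. Glycolytic genes have many processed pseudogenes. Of all windows of 75 bases, the read length, in the longest coding transcript, the share that also matched another annotated gene with at most 3 mismatches was 84.6% for Eno1, 82.7% for Gapdh, 68.5% for Ldhb, 67.5% for Pgk1, 58.8% for Pkm and 54.3% for Pdhb. For Gapdh (glyceraldehyde 3-phosphate dehydrogenase) these windows matched 130 other genes, 117 of them pseudogenes, and Gapdh stood at only 8.77 ± 0.284 RPKM in WT MHC I low cells (SD, n = 3). The share was under 5% for 19 genes, Slc2a3 (0.0257%) and Hk1 (2.09%) among them, and no window of Hk2, Eno3, Pdk1, Pdk2, Pdk3, Slc16a1 or Slc16a3 matched another gene. Comparisons of 1 gene between groups use the same rule in every library, but values of the 6 genes over 50% may hold reads of their copies. They may also lack reads of their own, if reads that match several places were dropped. The share was 48.9% for Gpi1, 41.8% for Ldha, 40.6% for Pgam1 and 31.5% for Aldoa. Levels compared between genes, and ratios such as that of Ldha to Ldhb, carry this limit.

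The largest differences were between the fractions. In WT mice, 7 of the 35 genes were higher and 13 lower in MHC I high than in MHC I low cells (limma, Benjamini-Hochberg adjusted p under 0.05), where 27.5% of all genes tested were higher and 26.8% lower. The median log2 fold change of the 35 was −0.07, against −0.0042 over all genes. In these bulk samples, fewer cells of a type with a transcript and less of it per cell cannot be told apart. All 16 cell-cycle genes examined and 7 of 8 genes of mature single-positive cells were also higher in MHC I high cells in each genotype. Among these 7, H2-K1 encodes the MHC I molecule used to sort the fractions, so its direction was set by the sort. It also makes up a large part of the summed level of this list in MHC I high cells. The remaining gene of the 8, Il7r, was lower in each genotype (WT −0.44, Hoil ΔCd4 −0.35, Sharpin cpdm −0.45 on the log2 scale). In WT the summed level of the cycle genes was 427 to 472 CPM in MHC I low and 1137 to 1205 CPM in MHC I high cells. Their part in the differences below was not tested.

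Both glucose transporters fell with maturation. Slc2a3 (chromosome 6, 122727809 to 122802363 in GRCm38.p6) was at 115.5, 123 and 123 CPM in the MHC I low cells of WT mice 1 to 3 and at 74.7, 91.9 and 85.6 CPM in their MHC I high cells, so every mouse was lower in the later fraction. The log2 fold change was −0.52 (SE 0.0505, adjusted p = 2.75e-10), and −0.35 for Slc2a1 (SE 0.0745, adjusted p = 0.000175). The same calls were made in both mutants, that of Slc2a1 in Hoil ΔCd4 mice being lost without mouse 1 (adjusted p = 0.074) or 3 (0.174). In Hoil ΔCd4 mice Slc2a3 changed by −0.32 and Slc2a1 by −0.29 on the log2 scale, and in Sharpin cpdm mice by −0.70 and −0.52.

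Among the hexokinases, the abundant and the rare isoenzyme moved in opposite directions. Hk1 (chromosome 10, 62268855 to 62379920) was at 139, 147 and 150.4 CPM in WT MHC I low and 153, 178 and 167 CPM in MHC I high cells (log2 fold change 0.19, SE 0.046, adjusted p = 0.000841). Hk2 (chromosome 6, 82725025 to 82774454) was at 8.90, 8.06 and 11.6 CPM and then at 5.17, 6.15 and 6.55 CPM (−0.63, SE 0.133, adjusted p = 0.000177). The groups did not overlap for either gene. Per length, Hk1 stood 19.1 ± 3.19 times as high as Hk2 in WT MHC I low and 34.3 ± 2.66 times in MHC I high cells (SD, n = 3).

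Phosphofructokinase, the committed step, is built from the subunits of 3 genes. Pfkp, the platelet-type subunit (chromosome 13, 6579874 to 6649060), was at 189.6, 202 and 197 CPM in WT MHC I low and at 127, 131 and 136 CPM in MHC I high cells. It fell by 0.56 on the log2 scale (SE 0.0412, adjusted p = 6.28e-13), by 0.59 in Hoil ΔCd4 and by 0.53 in Sharpin cpdm mice. Pfkl, the liver-type subunit, rose by 0.14 in WT mice (SE 0.0542, adjusted p = 0.0336), but its WT groups overlapped and the call was lost in 9 of 17 alternative analyses. Pfkm, the muscle-type subunit, did not pass in WT mice (−0.0038, 95% CI −0.11 to 0.11). The ratio of Pfkp to Pfkl per length was 3.90 ± 0.188 in WT MHC I low and 2.38 ± 0.0902 in WT MHC I high cells.

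Of the other upper glycolytic enzymes, Aldoa was lower in MHC I high cells in WT mice (−0.28, SE 0.054, adjusted p = 5.04e-05) and in both mutants. Tpi1, triose phosphate isomerase (chromosome 6, 124810586 to 124814158), was at 19.5, 21.04 and 23.2 CPM in WT MHC I low and at 26.0, 31.0 and 27.8 CPM in MHC I high cells. It rose by 0.39 on the log2 scale (SE 0.101, adjusted p = 0.00188), with no overlap in WT mice. Gpi1, glucose 6-phosphate isomerase, did not pass in WT mice (−0.01, 95% CI −0.10 to 0.08). Aldoc was represented by 1 to 17 reads per library, and its call in Hoil ΔCd4 mice, where it averaged 0.23 CPM in MHC I low and 0.787 CPM in MHC I high cells (adjusted p = 0.0188), was lost without mouse 1 (adjusted p = 0.182) or mouse 3 (adjusted p = 0.0617).

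In the lower part of glycolysis, the counts assigned to Gapdh (chromosome 6, 125161852 to 125166467) fell from 10.8, 10.5 and 11.2 CPM to 6.63, 5.46 and 4.97 CPM in WT mice, a log2 fold change of −0.99 (SE 0.123, adjusted p = 5.02e-08). The change was −0.89 in Hoil ΔCd4 and −0.92 in Sharpin cpdm mice. Eno3, the muscle-type enolase (chromosome 11, 70653125 to 70662513), went the other way. It was at 33.5, 43.1 and 39.4 CPM in WT MHC I low and at 51.2, 64.4 and 59.7 CPM in MHC I high cells (0.61, SE 0.0752, adjusted p = 5.5e-08). Eno1, the widely expressed enolase, did not pass (0.01, 95% CI −0.12 to 0.13), so the ratio of Eno1 to Eno3 per length went from 3.53 ± 0.482 in MHC I low to 2.36 ± 0.103 in MHC I high cells (SD, n = 3). Bpgm, which makes 2,3-bisphosphoglycerate, fell by 0.33. Pgk1, phosphoglycerate kinase, fell by 0.27 with overlapping groups, and its call was lost in 5 of 17 alternatives, among them the fits without WT mouse 1 (adjusted p = 0.435) or WT mouse 3 (adjusted p = 0.111). Pkm and Pgam1 (phosphoglycerate mutase) did not pass in WT mice.

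The largest single change was in lactate dehydrogenase. Ldhb, the B subunit (chromosome 6, 142490249 to 142507957), was at 79.6, 80.1 and 86.7 CPM in WT MHC I low and at 35.1, 34.7 and 40.9 CPM in MHC I high cells. Every MHC I high library was below every MHC I low library, at 0.466 times the level (log2 fold change −1.10, SE 0.0593, adjusted p = 3.02e-16). Ldha, the A subunit, averaged 357 ± 11.3 and 374 ± 34.4 CPM and did not pass (0.03, 95% CI −0.07 to 0.13). The subunits form tetramers in any mixture, and an excess of the A subunit is known to favour the reduction of pyruvate. The ratio of Ldha to Ldhb per length was 3.06, 3.03 and 2.65 in WT MHC I low and 6.75, 7.97 and 5.79 in WT MHC I high cells. It lay between 2.63 and 3.24 in all 9 MHC I low and between 5.79 and 8.22 in all 9 MHC I high libraries, as the plot of isoenzyme ratios shows.

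Lactate leaves the cell through monocarboxylate transporters. Slc16a1 (MCT1; chromosome 3, 104638664 to 104658462) was at 58.8, 45.7 and 54.7 CPM in WT MHC I low and at 61.5, 71.7 and 63.3 CPM in MHC I high cells. It rose by 0.26 (SE 0.0874, adjusted p = 0.0153), a call that was lost without WT mouse 2 (adjusted p = 0.159). It rose by 0.71 in Hoil ΔCd4 and 0.47 in Sharpin cpdm mice. Slc16a3 (MCT4) did not pass in WT mice (−0.20, 95% CI −0.48 to 0.08) and fell by 0.85 in Hoil ΔCd4 and 0.46 in Sharpin cpdm mice.

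Among the regulators, the enzymes that make and degrade fructose 2,6-bisphosphate, an activator of phosphofructokinase, were lower in MHC I high cells of WT mice. In WT mice Pfkfb2 fell by 0.42 (SE 0.0571, adjusted p = 2e-07), Pfkfb4 by 0.26 and Pfkfb3 by 0.14. The latter 2 calls were lost in 6 and 9 of 17 alternatives. Pfkfb2 and Pfkfb3 were also called lower in both mutants, and Pfkfb4 was called in neither. Hif1a, the oxygen-sensitive subunit of a transcription factor that drives glycolytic genes in low oxygen, averaged 194.5 to 209.7 CPM in all 6 groups and was called in none of the 11 comparisons.

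The kinases that switch off pyruvate dehydrogenase moved in both directions. Pdk1 (chromosome 2, 71873215 to 71903858) was at 205, 183 and 196 CPM in WT MHC I low and at 319.5, 290.1 and 332 CPM in MHC I high cells. Pdk2 (chromosome 11, 95026258 to 95041371) was at 9.22, 6.72 and 9.46 CPM and then at 16.9, 15.8 and 15.8 CPM. Both rose without overlap, Pdk1 by 0.71 (SE 0.0533, adjusted p = 8.1e-13) and Pdk2 by 0.91 (SE 0.111, adjusted p = 3.77e-08) on the log2 scale. Pdk3 fell by 0.24 (SE 0.0757, adjusted p = 0.0078) with overlapping groups, a call lost without WT mouse 1 (adjusted p = 0.434) or WT mouse 3 (adjusted p = 0.382). Per length, Pdk1 stood 1.96 ± 0.141 times as high as Pdk3 in MHC I low and 3.62 ± 0.766 times in MHC I high cells of WT mice. The subunits of pyruvate dehydrogenase (Pdha1, Pdhb, Dlat, Pdhx) and of the mitochondrial pyruvate carrier (Mpc1, Mpc2) did not pass in WT mice, with fold changes from −0.13 to −0.0033 on the log2 scale.

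**Figure D2:**
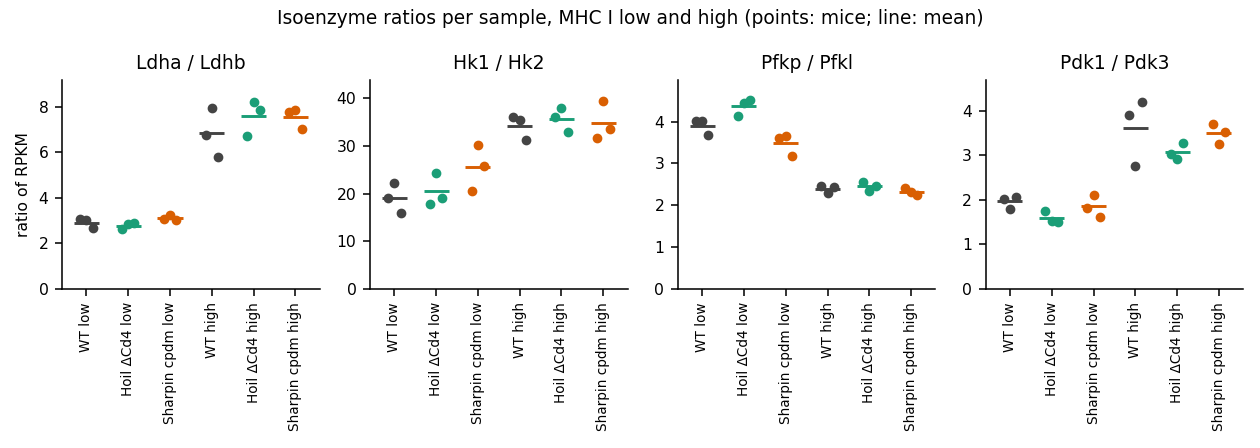
Ratio of RPKM of isoenzyme pairs in each of the 18 libraries, grouped by genotype and MHC I fraction (points: mice, line: mean). Ldha to Ldhb lies between 2.63 and 3.24 in MHC I low and between 5.79 and 8.22 in MHC I high cells, and Pfkp to Pfkl lies lower in every MHC I high library than in any MHC I low library.

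The upstream sequences of the pair of lactate dehydrogenase genes and of the kinases Pdk1 and Pdk2 are shown because these genes carried the largest or the most unequal changes between the fractions. They are the 250 bases before the furthest upstream start listed for each gene among RefSeq promoters on GRCm38.p6, printed 5′ to 3′ on the strand of the gene. Capitals mark the letters ACGTG or GCGTG on either strand, the core of the site that HIF-1 is known to bind. For Ldha and Pdk1 the annotated gene begins further upstream than the start listed, and counts per gene do not tell which start is used.

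Ldha, chr7:46845554-46845803, plus strand: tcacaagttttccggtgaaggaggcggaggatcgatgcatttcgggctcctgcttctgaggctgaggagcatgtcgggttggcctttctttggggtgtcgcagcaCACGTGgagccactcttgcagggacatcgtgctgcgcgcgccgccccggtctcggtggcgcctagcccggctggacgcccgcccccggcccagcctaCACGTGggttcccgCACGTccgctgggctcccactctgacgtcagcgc

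Ldhb, chr6:142507958-142508207, minus strand: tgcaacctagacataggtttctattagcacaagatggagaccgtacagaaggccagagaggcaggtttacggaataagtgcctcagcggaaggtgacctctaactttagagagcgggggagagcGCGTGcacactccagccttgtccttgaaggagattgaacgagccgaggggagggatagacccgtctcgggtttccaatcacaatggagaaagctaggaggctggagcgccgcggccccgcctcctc

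Pdk1, chr2:71872974-71873223, plus strand: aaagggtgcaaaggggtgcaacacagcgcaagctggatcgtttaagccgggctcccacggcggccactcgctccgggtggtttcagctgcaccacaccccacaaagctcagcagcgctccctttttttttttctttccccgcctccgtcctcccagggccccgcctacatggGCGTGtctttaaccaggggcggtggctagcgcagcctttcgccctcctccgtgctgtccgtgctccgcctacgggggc

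Pdk2, chr11:95041372-95041621, minus strand: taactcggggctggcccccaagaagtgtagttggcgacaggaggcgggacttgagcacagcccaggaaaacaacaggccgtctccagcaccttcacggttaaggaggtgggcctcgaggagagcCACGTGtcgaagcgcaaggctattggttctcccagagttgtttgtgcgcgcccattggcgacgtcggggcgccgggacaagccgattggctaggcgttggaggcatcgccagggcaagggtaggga

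Ldha held 5 matches, between 34 and 145 bases before the start, Ldhb 1, Pdk1 1 and Pdk2 2. The palindrome CACGTG, the letters of an E-box that MYC is known to bind, holds ACGTG on both strands and so counts as 2 of these matches. Either core was found in 38.6% of the 27025 promoters of the table and in 27 of the 34 genes described here that have an entry. CACGTG was found in 6.04% of all promoters and in 5 of the 34 (Hif1a, Ldha, Pdk2, Pfkm and Slc16a1). G and C made up 36.4% (Pfkm) to 76.4% (Slc16a1) of the sequence in these 34, and their share in all promoters is not given here. A match of these letters is not a bound site. The genes whose upstream sequence held such letters included some that rose, some that fell and some that were not called.

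The change between fractions was also tested in each mutant. In Hoil ΔCd4 mice 9 of the 35 genes were higher and 12 lower in MHC I high cells, against 23.5% and 21.7% of all genes tested. In Sharpin cpdm mice 5 were higher and 20 lower, against 27.2% and 27.4%. Called in the same direction in all 3 genotypes were 16 genes, 11 of them lower and 5 higher. The higher ones were Tpi1, Eno3, Slc16a1, Pdk1 and Pdk2. The share of all genes called in the same direction in all 3 genotypes was not counted. Called lower in Sharpin cpdm mice, and not called in either other genotype, were Gpi1, Pfkm, Pgam1, Eno1, Ldha, Pdha1 and Dlat, but the difference of these changes from those in WT did not pass for any of them. Pkm was called higher in Hoil ΔCd4 mice (0.22, adjusted p = 0.00612), without an interaction that passed.

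**Figure D3:**
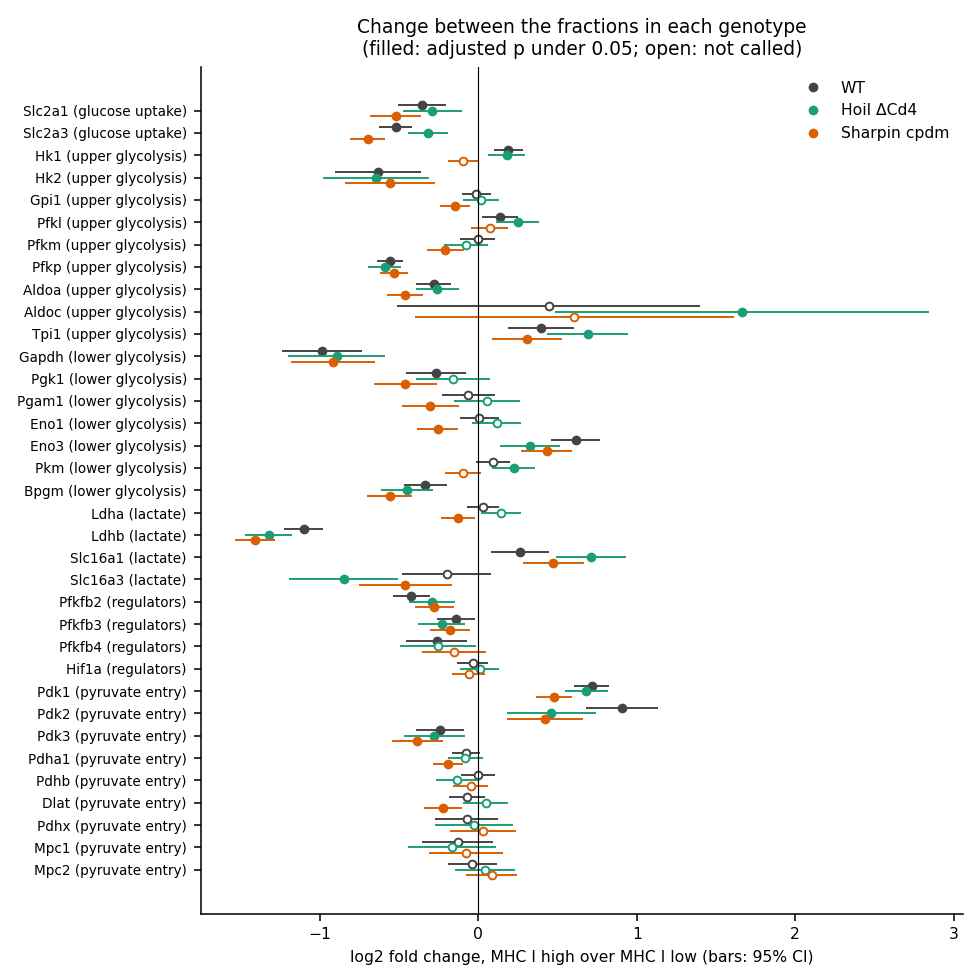
log2 fold change of MHC I high over MHC I low cells for the 35 genes in WT, Hoil ΔCd4 and Sharpin cpdm mice, with 95% confidence intervals (filled: adjusted p under 0.05, open: not called). Ldhb and Gapdh lie farthest to the left in each genotype, and Pdk1, Pdk2, Eno3, Tpi1 and Slc16a1 are filled on the right in each. The wide interval is that of Aldoc.

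Each mutant was then compared with WT in MHC I low cells. The comparisons of the mutants share the 3 WT mice, so their values are set side by side without a measure of likeness. In Sharpin cpdm mice 8 of the 35 genes were higher and 0 lower by limma, against 5.28% and 6.86% of all genes tested, and 0 were lower at an unadjusted p under 0.05. The share of all genes at that unadjusted threshold is not given here. Of the 35, 26 had fold changes above 0, and their median was 0.18 on the log2 scale, against 0.0084 over all genes. In 17 of the 35 every Sharpin cpdm mouse was above every WT mouse, and in 0 was every one below. The share of all genes that stood apart in this way was not counted. The summed level of the 35 genes was 3332 to 3408 CPM in WT and 3648 to 3852 CPM in Sharpin cpdm MHC I low cells.

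The genes called higher lay at steps from uptake to pyruvate. At these steps Slc2a1, Hk2, Pfkm, Pfkp, Gapdh, Pgk1, Pgam1 and Eno3, among others, were not called. Median log2 fold changes were also above 0 for 18 genes of the tricarboxylic acid cycle (0.14, 15 above 0) and 10 of the pentose phosphate pathway (0.13, 8 above 0). They were −0.0044 for 20 further genes of glucose use, 0.06 for 16 of the HIF pathway and −0.0058 for 12 that control glycolysis. Slc2a3 was at 152, 136 and 140.2 CPM in the 3 Sharpin cpdm mice, all above the WT values of 115.5, 123 and 123 CPM (log2 fold change 0.24, SE 0.0614, adjusted p = 0.00894). Hk1 was at 178, 183 and 179.9 CPM, against 139, 147 and 150.4 CPM in WT mice (0.32, SE 0.0559, adjusted p = 0.000245). Hk1 had the smallest p-value of the 35 in this comparison, and its call was kept in all 16 alternatives, with adjusted p-values of 5.53e-05 to 0.00661. The call of Slc2a3 was lost without Sharpin cpdm mouse 1 (adjusted p = 0.0761).

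Further enzymes of the upper part followed. Gpi1 (chromosome 7, 34201327 to 34230336) was at 195, 198 and 206 CPM in Sharpin cpdm and 173, 178 and 173 CPM in WT mice (0.19, SE 0.0548, adjusted p = 0.0202). Pfkl (chromosome 10, 77986947 to 78009807) was at 54.9, 55.01 and 61.5 CPM against 44.1, 46.9 and 49.9 CPM (0.27, SE 0.0659, adjusted p = 0.00629). Aldoa (chromosome 7, 126795234 to 126800994) was at 225, 235 and 235 CPM against 192, 205 and 188 CPM (0.26, SE 0.0657, adjusted p = 0.0094). In each of the 3 the groups were apart. Tpi1, at 25.1, 26.7 and 32.7 CPM against 19.5, 21.04 and 23.2 CPM, rose by 0.38 (SE 0.123, adjusted p = 0.042) and its call was lost in 9 of 16 alternatives.

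In the lower part, Eno1 (chromosome 4, 150236708 to 150248879) was at 197, 191 and 195 CPM in Sharpin cpdm and 155.5, 152 and 166 CPM in WT mice. It rose by 0.30 (SE 0.0737, adjusted p = 0.00847), and its call was kept in all 16 alternatives. Pkm (chromosome 9, 59656576 to 59679372) was at 593, 685 and 725 CPM against 559.5, 572 and 568 CPM, with a wide spread among the Sharpin cpdm mice (0.23, SE 0.0645, adjusted p = 0.0194). Pdk2 (0.39, adjusted p = 0.0535), Pfkm (0.19, adjusted p = 0.0511), Pdk1 (0.18, adjusted p = 0.0612), Pdk3 (0.26, adjusted p = 0.0658) and Pgk1 (0.31, adjusted p = 0.0705) were not called. With Xist as a covariate 13 of the 35 were called higher and 0 lower. The share of all genes called in that fit is not given here.

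Some calls in this comparison were lost when 1 mouse was left out. Without WT mouse 1 only 3 of the 35 were called, and 5 without WT mouse 3 or without Sharpin cpdm mouse 2. Lost without WT mouse 1 were Gpi1 (adjusted p = 0.0714), Pfkl (0.0634), Aldoa (0.0632), Tpi1 (0.213) and Pkm (0.0708). Lost without WT mouse 3 were Gpi1 (0.0887), Aldoa (0.0756), Tpi1 (0.0654) and Pkm (0.0702), and 1 of the 5 genes called without this mouse was not among the 8. Lost without Sharpin cpdm mouse 2 were Gpi1 (0.0601), Tpi1 (0.058) and Pkm (0.0824), and the same 3 without Sharpin cpdm mouse 3 (0.0661, 0.193 and 0.131).

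Stage markers moved as well. Of 8 markers of mature single-positive cells, Ccr7 and Il7r were higher in Sharpin cpdm MHC I low cells (0.36 and 0.27), of which Ccr7 rose and Il7r fell between the fractions, and the summed level of the list was 1513 to 1577 CPM in WT and 1685 to 1735 CPM in Sharpin cpdm mice. Of 8 genes of double-positive (DP) thymocytes, Rag2 and Themis were lower (−1.04 and −0.19), and the sums were 738 to 783 CPM and 622 to 682 CPM. Of the 16 cycle genes 2 were higher and 3 lower, with sums of 427 to 472 CPM and 399 to 516 CPM. The part of these shifts in the values of the 35 genes was not tested. Since the cpdm line came from another strain, neighbours within 5 Mb were counted: near Aldoa, 19 of 128 genes tested were higher and 14 lower in Sharpin cpdm MHC I low cells, 8 of them by at least 2-fold, whereas 0 to 2 neighbours of each of the other 7 called genes differed by that much. Of all genes tested, 5.28% were higher and 6.86% lower. Higher and lower neighbours were 6 and 4 of 96 for Slc2a3, 2 and 4 of 53 for Hk1, and 3 and 7 of 79 for Gpi1. They were 11 and 5 of 166 for Pfkl, 7 and 6 of 96 for Tpi1, 3 and 8 of 85 for Eno1, and 6 and 5 of 79 for Pkm. Strain and genotype cannot be told apart here.

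Of the 35 genes, in Hoil ΔCd4 MHC I low cells, 1 was higher and 1 lower than in WT, against 0.422% and 0.563% of all genes tested. The median of the 35 was 0.02 on the log2 scale, against −0.0014 over all genes. Slc2a3 was lower, at 93.2, 98.3 and 101 CPM in the 3 Hoil ΔCd4 mice, all below the WT values of 115.5, 123 and 123 CPM (−0.30, SE 0.0674, adjusted p = 0.0185). Slc16a3, the lactate exporter MCT4 (chromosome 11, 120948484 to 120959000), was higher, at 13.8, 16.2 and 23.0 CPM against 8.96, 9.79 and 12.1 CPM. It stood at 1.70 times the WT level (log2 fold change 0.76, SE 0.183, adjusted p = 0.0324).

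Both calls were lost when any 1 of several mice was left out. That of Slc2a3 was lost without WT mouse 3 (adjusted p = 0.0839) or without Hoil ΔCd4 mouse 1 (0.0843), 2 (0.0598) or 3 (0.0543), with fold changes of −0.33 to −0.27 over all alternatives. That of Slc16a3 was lost without WT mouse 1 (adjusted p = 0.2) or 2 (0.0714), without Hoil ΔCd4 mouse 2 (0.0896) or 3 (0.338), and without the filter on low counts (0.0849). The DP genes summed to 816 to 853 CPM in Hoil ΔCd4 and 738 to 783 CPM in WT MHC I low cells, with 0 of 8 called, and the mature single-positive genes to 1306 to 1411 CPM and 1513 to 1577 CPM, with only Il7r called (−0.27, adjusted p = 0.00807), a gene that also fell from MHC I low to high cells. Their part in the change of Slc2a3 was not tested. Eno3 (0.39, 95% CI 0.18 to 0.59, adjusted p = 0.0551) and Pdk1 (−0.22, 95% CI −0.36 to −0.07, adjusted p = 0.168) were apart from WT in every mouse without passing, as were Pfkp (0.17, adjusted p = 0.154) and Mpc2 (−0.14, adjusted p = 0.674).

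**Figure D4:**
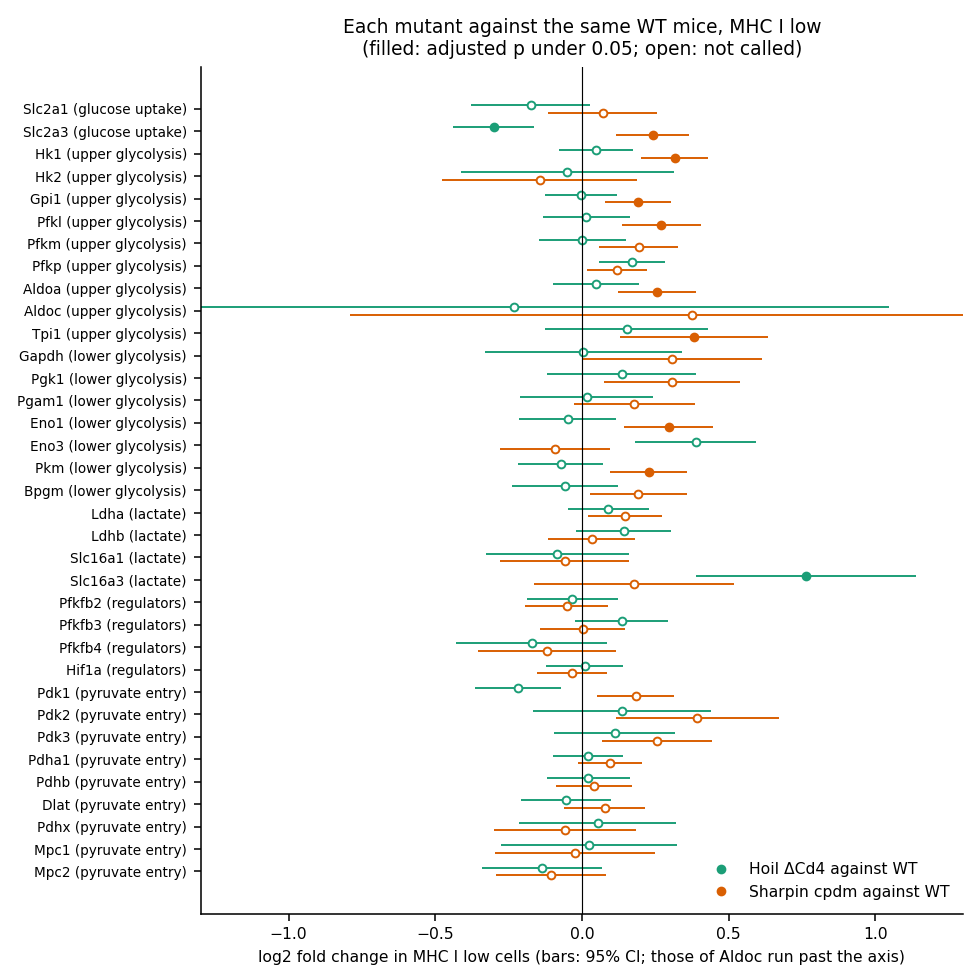
log2 fold change of each mutant over WT in MHC I low cells for the 35 genes, with 95% confidence intervals (filled: adjusted p under 0.05, open: not called). The 8 filled points of Sharpin cpdm lie between 0.19 and 0.38, and the filled points of Hoil ΔCd4 are Slc2a3 at −0.30 and Slc16a3 at 0.76.

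The mutants were also compared with each other. WT values do not enter these fold changes, but WT samples share in the estimates of spread, block and weights, and Gpi1 did not pass when WT mouse 3 was left out (adjusted p = 0.0612). Of the 35 genes 2 were, in MHC I low cells, higher and 7 lower in Hoil ΔCd4 than in Sharpin cpdm mice, against 5.13% and 4.36% of all genes tested, and the median of the 35 was −0.14 on the log2 scale, against −0.0107 over all genes. Slc2a3 had the smallest p-value, with 93.2 to 101 CPM in Hoil ΔCd4 and 136 to 152 CPM in Sharpin cpdm mice, or 0.687 times the level (−0.54, SE 0.0693, adjusted p = 3.94e-06). Pdk1 was at 172, 152 and 180.1 CPM in Hoil ΔCd4 and at 224, 238 and 196.5 CPM in Sharpin cpdm mice, again without overlap (−0.40, SE 0.0731, adjusted p = 0.00051). Hk1 was at 147, 152 and 151 CPM in Hoil ΔCd4 mice, below the 178 to 183 CPM of Sharpin cpdm mice (−0.27, SE 0.063, adjusted p = 0.00598). These 3 calls were kept in all 16 alternatives.

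Enolase isoenzymes differed in opposite directions between the mutants. Eno1 was at 140.1, 135.5 and 182 CPM in Hoil ΔCd4 mice, all below the 191 to 197 CPM of Sharpin cpdm mice (−0.35, SE 0.0831, adjusted p = 0.00842). Eno3 was at 47.9, 49.3 and 51.8 CPM in Hoil ΔCd4 and at 30.4, 38.0 and 39.4 CPM in Sharpin cpdm mice (0.48, SE 0.103, adjusted p = 0.00313), a call kept in all 16 alternatives. The ratio of Eno1 to Eno3 per length was therefore 2.62 ± 0.343 in Hoil ΔCd4, 3.53 ± 0.482 in WT and 4.69 ± 0.734 in Sharpin cpdm mice, all in MHC I low cells (SD, n = 3). The call of Eno1 was lost without Hoil ΔCd4 mouse 1 (adjusted p = 0.06) or 2 (0.0594), and its reads may be shared with copies.

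The other genes lower in Hoil ΔCd4 than in Sharpin cpdm mice were Pkm (−0.30, adjusted p = 0.00851), Pfkl (−0.26, adjusted p = 0.0268) and Gpi1 (−0.19, adjusted p = 0.045). Slc16a3 was higher in Hoil ΔCd4 mice (0.59, adjusted p = 0.0458) with overlapping groups. The calls of Gpi1 and Slc16a3 were each lost in 8 of 16 alternatives, that of Pfkl in 4 and that of Pkm in 2. Without Hoil ΔCd4 mouse 1 or mouse 2, 5 of the 35 were called. Markers of stage also separated the mutants: 3 of 8 DP genes were higher and 4 of 8 mature single-positive genes lower in Hoil ΔCd4 mice, and 5 of 16 cycle genes were higher. Their part was not tested.

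**Figure D5:**
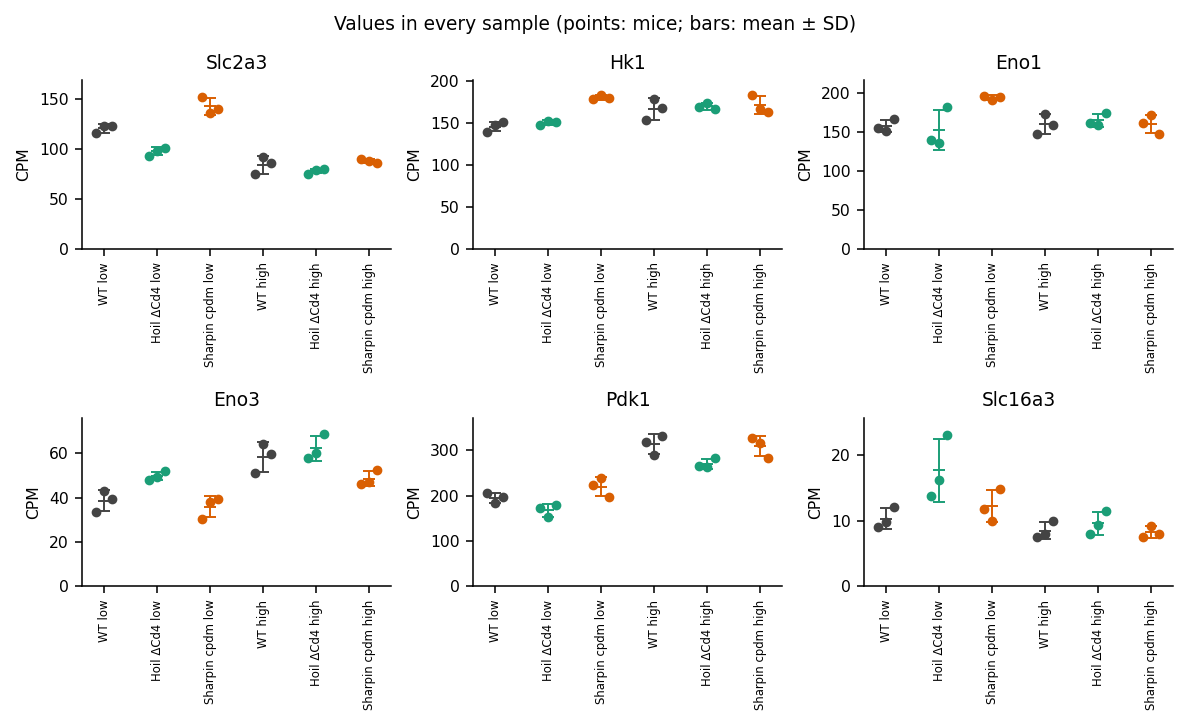
CPM of 6 genes in all 18 libraries by genotype and MHC I fraction (points: mice, bars: mean ± SD of 3). In MHC I low cells Slc2a3 is lowest in Hoil ΔCd4 (93.2 to 101 CPM) and highest in Sharpin cpdm mice (136 to 152 CPM), and Hk1 and Eno1 are highest in Sharpin cpdm mice. The y axes start at 0.

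In MHC I high cells 4 of the 35 genes were called in each mutant against WT. In Hoil ΔCd4 mice 3 of the 35 were higher and 1 lower than in WT, against 3.84% and 2.81% of all genes tested. The higher ones were Tpi1 at 30.2, 44.7 and 37.2 CPM against 26.0, 31.0 and 27.8 CPM (0.45, SE 0.121, adjusted p = 0.0249), Slc16a1 (0.37, adjusted p = 0.0396) and Ldha (0.20, adjusted p = 0.0409), all with overlapping groups. Pdk1 was lower, at 265, 263 and 283 CPM against 319.5, 290.1 and 332 CPM, without overlap (−0.25, SE 0.0639, adjusted p = 0.0145). None of the 4 was called by edgeR (adjusted p = 0.11 to 0.291), by DESeq2 (0.0686 to 0.304), without the filter on low counts, without sample weights, or without WT mouse 1, WT mouse 3 or Hoil ΔCd4 mouse 2. WT mouse 3 carried the largest sample weight, 2.42. In the same cells 14 of 16 cycle genes and 6 of 8 DP genes were higher in Hoil ΔCd4 than in WT mice, with cycle sums of 1558 to 1920 CPM against 1137 to 1205 CPM. Their part was not tested.

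In Sharpin cpdm MHC I high cells 2 of the 35 were higher and 2 lower than in WT, against 4.15% and 4.46% of all genes tested. Pfkl was at 58.7, 59.9 and 59.0 CPM against 48.3, 53.6 and 52.3 CPM (0.21, SE 0.0596, adjusted p = 0.0267), and Pfkp rose by 0.15 (adjusted p = 0.0375). Ldhb was lower, at 31.6, 31.7 and 32.0 CPM against 35.1, 34.7 and 40.9 CPM (−0.27, SE 0.0652, adjusted p = 0.00709). Eno3 was lower with overlapping groups, at 46.2, 46.9 and 52.5 CPM against 51.2, 64.4 and 59.7 CPM (−0.28, SE 0.0826, adjusted p = 0.0346). In the fits without WT mouse 3 or without Sharpin cpdm mouse 2, with edgeR, and without sample weights, 0 of the 35 were called. In these cells 12 of 16 cycle genes and 4 of 8 DP genes were higher than in WT, with cycle sums of 1368 to 1879 CPM, and their part was not tested.

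Between the mutants in MHC I high cells, 2 of the 35 were higher in Hoil ΔCd4 mice and 0 lower by limma, against 3.7% and 3.02% of all genes tested, and 2 were lower at an unadjusted p under 0.05, Slc2a3 and Pdk1. The share of all genes at that unadjusted threshold is not given here. Eno3 was at 58.1, 60.2 and 68.6 CPM in Hoil ΔCd4 mice, above the 46.2, 46.9 and 52.5 CPM of Sharpin cpdm mice (0.38, SE 0.0912, adjusted p = 0.0106), and so stood apart between the mutants in both fractions. Ldha averaged 415 ± 23.1 against 359 ± 19.3 CPM (0.21, SE 0.0613, adjusted p = 0.0341). Without Hoil ΔCd4 mouse 2, Hoil ΔCd4 mouse 3 or Sharpin cpdm mouse 2, 0 of the 35 were called. In these cells 3 of 8 mature single-positive genes, Ccr7 (−0.31), Il7r (−0.44) and H2-K1 (−0.22), were lower in Hoil ΔCd4 than in Sharpin cpdm mice, with sums of 3917 to 4220 and 4536 to 4575 CPM, and their part was not tested. Slc2a3, which had the smallest p-value between the mutants in MHC I low cells, was in MHC I high cells at 75.3, 78.9 and 79.8 CPM in Hoil ΔCd4, 74.7 to 91.9 CPM in WT and 89.7, 87.5 and 85.4 CPM in Sharpin cpdm mice, with no call in any of these 3 comparisons (Hoil ΔCd4 against WT −0.10, adjusted p = 0.356; Sharpin cpdm against WT 0.06, adjusted p = 0.543).

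The interaction tests asked whether the difference between the fractions in a mutant was unlike that in WT. In Hoil ΔCd4 mice 0 of the 35 were called higher and 0 lower by limma, against 0.297% and 0.102% of all genes tested. edgeR and DESeq2 also called 0, 6 of the 35 had an unadjusted p under 0.05 in limma, and 1 was called without WT mouse 2. The share of all genes with an unadjusted p under 0.05 is not given here, so the 6 have no baseline. The smallest p-values belonged to Slc16a1 (difference 0.45, adjusted p = 0.206) and Slc16a3 (−0.65, adjusted p = 0.229), and Slc2a3 differed by 0.20 (95% CI 0.04 to 0.37, adjusted p = 0.356). So the lower Slc2a3 of Hoil ΔCd4 mice was called in MHC I low and not in MHC I high cells, but a difference between the fractions was not shown.

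In Sharpin cpdm mice 0 of the 35 had a higher change than WT by limma, also at an unadjusted p under 0.05, and 2 a lower one, against 2.2% and 0.93% of all genes tested, and the median difference of the 35 was −0.14 on the log2 scale, against −0.0052 over all genes. These shares are for adjusted p-values, and that for unadjusted p-values is not given here. Hk1 rose with maturation in WT mice (0.19) and was at 178, 183 and 179.9 CPM in MHC I low and 183, 166 and 163 CPM in MHC I high cells of Sharpin cpdm mice (difference −0.28, SE 0.0666, adjusted p = 0.0148). Ldhb fell by 1.41 in Sharpin cpdm and by 1.10 in WT mice (difference −0.31, SE 0.0859, adjusted p = 0.0456). Without the block for the mouse 0 were called, and 4 with the mouse as a fixed effect. In the reported interaction test 8 of 16 cycle genes and 5 of 8 DP genes had a higher change than in WT, with median differences of 0.83 and 0.59, and their part was not tested. Next came Pdk1 (−0.24, adjusted p = 0.0844), Pdk2 (−0.49, adjusted p = 0.0914) and Eno1 (−0.26, adjusted p = 0.0953), which did not pass.

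The levels of these genes in the remaining groups were as follows, for mice 1 to 3 of each group. Hk1 was at 169, 174 and 166 CPM in Hoil ΔCd4 MHC I high cells, above all 3 MHC I low values of these mice. Pfkl in Hoil ΔCd4 mice was at 48.1, 46.8 and 46.7 CPM in MHC I low and 53.5, 58.5 and 55.6 CPM in MHC I high cells, also without overlap. Tpi1 was at 22.6, 21.3 and 25.9 CPM in Hoil ΔCd4 mice for MHC I low cells and at 27.8, 37.6 and 34.9 CPM in Sharpin cpdm MHC I high cells. In Sharpin cpdm mice the Tpi1 values of the fractions overlapped.

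The MHC I low cells of Hoil ΔCd4 mice had 189, 197 and 214.5 CPM of Aldoa. Its MHC I high levels were 152, 188 and 155 CPM in WT mice, 156, 176 and 168 CPM in Hoil ΔCd4 and 162.5, 179 and 154 CPM in Sharpin cpdm mice, and these 3 groups overlapped. The MHC I low cells of Hoil ΔCd4 mice had 171, 169 and 181 CPM of Gpi1. Its MHC I high levels were 161, 189 and 173.5 CPM in WT mice, 171, 178 and 178 CPM in Hoil ΔCd4 and 176, 187 and 171 CPM in Sharpin cpdm mice, again overlapping.

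Eno1 in MHC I high cells was at 148, 174 and 159.7 CPM in WT mice, 162, 159 and 175 CPM in Hoil ΔCd4 and 161.5, 171 and 148 CPM in Sharpin cpdm mice. The MHC I low cells of Hoil ΔCd4 mice had 511, 521 and 581 CPM of Pkm. The MHC I high levels of Pkm were 556, 651 and 611 CPM in WT mice, 596, 636 and 645 CPM in Hoil ΔCd4 and 559, 663 and 607 CPM in Sharpin cpdm mice. For both genes the MHC I high groups overlapped, whereas in MHC I low cells Sharpin cpdm mice stood above the other genotypes in every mouse.

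Ldhb stood at 93.8, 80.8 and 97.5 CPM in Hoil ΔCd4 and 86.6, 80.6 and 88.6 CPM in Sharpin cpdm MHC I low cells, and at 38.5, 34.9 and 36.4 CPM in Hoil ΔCd4 MHC I high cells. Slc16a3 was at 11.8, 9.99 and 14.9 CPM in Sharpin cpdm MHC I low cells. The MHC I high levels of Slc16a3 were 7.44, 7.97 and 9.93 CPM in WT mice, 7.90, 9.40 and 11.4 CPM in Hoil ΔCd4 and 7.49, 9.22 and 7.92 CPM in Sharpin cpdm mice, with overlap between genotypes. Pdk1 was at 327, 317 and 284 CPM in Sharpin cpdm MHC I high cells, which overlapped with the WT values and lay above those of Hoil ΔCd4 mice.

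Pdk2 was at 10.2, 9.08 and 8.82 CPM in MHC I low and 14.4, 12.8 and 11.9 CPM in MHC I high cells of Hoil ΔCd4 mice, and at 12.7, 10.2 and 11.1 CPM and then 13.2, 16.5 and 14.1 CPM in Sharpin cpdm mice. Slc16a1 was at 50.3, 45.0 and 54.6 CPM and 67.9, 90.7 and 85.3 CPM in Hoil ΔCd4 mice, and at 49.0, 50.4 and 56.1 CPM and 65.1, 76.8 and 67.9 CPM in Sharpin cpdm mice. Both genes were higher in every MHC I high library than in any MHC I low library of the same genotype.

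Hk2 was at 10.02, 7.61 and 9.70 CPM in MHC I low and 5.69, 5.61 and 6.14 CPM in MHC I high cells of Hoil ΔCd4 mice, and at 10.5, 7.40 and 8.53 CPM and 7.04, 5.15 and 5.92 CPM in Sharpin cpdm mice. Pfkp was at 213, 224 and 226 CPM and 146, 146 and 147 CPM in Hoil ΔCd4 mice, and at 213, 215 and 209 CPM and 151, 149 and 141 CPM in Sharpin cpdm mice. Gapdh was at 11.5, 10.03 and 10.7 CPM and 6.07, 6.59 and 4.80 CPM in Hoil ΔCd4 mice, and at 15.5, 13.3 and 10.8 CPM and 7.55, 7.18 and 6.21 CPM in Sharpin cpdm mice. For these 3 genes every MHC I high library was below every MHC I low library of the same genotype.

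The 20 genes not called in any comparison between genotypes included all 4 regulators, both subunits of the mitochondrial carrier, the 4 pyruvate dehydrogenase subunits, Pdk2, Pdk3, Slc2a1, Hk2 and Gapdh. Of the 35, 5 were called in none of the 11 comparisons, namely Hif1a, Mpc1, Mpc2, Pdhb and Pdhx. For neither number was the share of all genes counted. For Hif1a the 95% interval was −0.12 to 0.14 in Hoil ΔCd4 and −0.15 to 0.09 in Sharpin cpdm against WT MHC I low cells.

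Other genes of these pathways were taken from lists fixed by name. Of 29 further genes of glucose transport, glycolysis, gluconeogenesis and related steps, 20 were tested. In Sharpin cpdm against WT, 2 of them were higher and 1 lower in MHC I low, and 1 higher and 1 lower in MHC I high cells. Of all genes tested, 5.28% were higher and 6.86% lower in MHC I low, and 4.15% and 4.46% in MHC I high cells. Pgm2, a phosphoglucomutase, was at 28.9, 30.7 and 28.7 CPM in Sharpin cpdm and 19.5, 20.02 and 19.6 CPM in WT MHC I low cells (0.59, adjusted p = 7.38e-05), and higher again in MHC I high cells (0.63, adjusted p = 9.4e-06). Pdp2, a phosphatase that activates pyruvate dehydrogenase, was lower in both fractions (−0.44, adjusted p = 0.0155, and −0.41, adjusted p = 0.016). In Hoil ΔCd4 against WT, 1 of the 20 was called in MHC I high cells, Hk3, a further hexokinase, at 0.405 against 1.37 CPM with overlapping groups (adjusted p = 0.0305). Of all genes tested, 3.84% were higher and 2.81% lower in that comparison.

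Of 10 genes of the pentose phosphate pathway, Tkt (transketolase) was higher in MHC I high cells of Hoil ΔCd4 mice (0.20, adjusted p = 0.041) and Pgd (6-phosphogluconate dehydrogenase) in Sharpin cpdm MHC I low cells (0.20, adjusted p = 0.0459). Those of 18 genes of the tricarboxylic acid cycle that were higher in Sharpin cpdm MHC I low cells included Mdh2 (malate dehydrogenase; 0.21, adjusted p = 0.0121). In Sharpin cpdm MHC I high cells Dlst, of the oxoglutarate dehydrogenase complex, was higher (0.15, adjusted p = 0.0434). Of 16 genes of the HIF pathway, Egln1, an oxygen sensor that marks HIF-1α for degradation, and Bnip3, a HIF target at 2.87 against 1.81 CPM, were higher in Sharpin cpdm MHC I low cells (0.27, adjusted p = 0.0187, and 0.67, adjusted p = 0.0446). Hif1an, which inhibits HIF-1α, was lower in MHC I high cells of Hoil ΔCd4 mice (−0.19, adjusted p = 0.0314).

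Of 12 genes known to control glycolysis in T cells, 1 was higher and 2 lower in Hoil ΔCd4 than in WT MHC I low cells. Of all genes tested, 0.422% were higher and 0.563% lower. Myc, a transcription factor that drives glycolytic genes, was at 56.1, 57.4 and 59.5 CPM in Hoil ΔCd4 and 75.2, 81.9 and 77.9 CPM in WT mice (−0.43, adjusted p = 0.0136). Bcl6, a transcriptional repressor, was at 148, 166 and 161 CPM against 126, 127 and 132 CPM (0.31, adjusted p = 0.0301). Neither was called in Sharpin cpdm MHC I low cells, where Myc differed from WT by 0.02 and Bcl6 by 0.06. Irf4, a factor induced by T-cell receptor signals, was lower than in WT MHC I low cells in both mutants (Hoil ΔCd4 −0.38, adjusted p = 0.0277; Sharpin cpdm −0.32, adjusted p = 0.00819). In MHC I high cells Myc was called higher in Sharpin cpdm mice (0.33, adjusted p = 0.00508) with overlapping groups, and Bcl6 was called in neither mutant.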

How the data were processed

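RNA of sorted thymocytes was sequenced as single-end reads of 75 bases. The deposited values are whole-number read counts per gene and sample: the authors aligned reads to mm10 with subread and counted them with featureCounts against its inbuilt RefSeq annotation. Versions, the strand setting and the treatment of reads that match several places are not given in the sources used here. Each mouse gave both fractions, and samples were grouped by genotype and fraction. The replicates are separate mice, and counts of replicate pairs differed by more than sampling noise.

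Counts were analysed in R 4.3.3. Genes without a RefSeq symbol (1904, with 0.655% of counts), predicted genes, genes of the Y chromosome and Xist were left out, as were genes under 0.5 CPM in all but 2 or fewer samples, which left 12797. Log2 CPM (TMM scaling, factors 0.987 to 1.015, prior count 1) were fitted with limma 3.58.1 as 6 groups, with sample weights (0.628 to 2.42), the mouse as a random block (correlation 0.224, statmod 1.5.0) and empirical Bayes with trend and robust settings. CPM and RPKM printed for single genes used the TMM-scaled totals of the genes tested. The filter and the summed levels of lists used the total of all counts in the library. P-values were two-sided and adjusted by the Benjamini-Hochberg method over all genes tested, and a gene was called at an adjusted p under 0.05. Deviations from group means of the 2 samples of a mouse correlated across genes at 0.0702 to 0.256. The pairing comes from the design, since both samples are from 1 animal.

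The 35 genes, the other lists and the tests were chosen with earlier results of these data known. Values in every sample are given for the 12 of the 35 with the smallest p-values between genotypes or in the interactions and for the 5 with the largest change in each direction between WT fractions. Other lists are given as counts with at most 3 names each (1 result of the tricarboxylic acid cycle list is not reported here), and Myc and Bcl6 are named whatever their value. Alternatives were edgeR 4.0.16 (quasi-likelihood), DESeq2 1.42.0, scaling by library size, no filter, no weights, no block, the mouse as a fixed effect, Xist as a covariate and each mouse left out. The scripts were tested on simulated counts with changes set in Hoil ΔCd4 MHC I low samples. There limma called 12% of 1.3-fold and 82% of 2-fold changes against WT, so a gene that was not called may still differ. Windows of the longest coding transcripts (GENCODE M21) were matched with bwa 0.7.19-r1273. Coordinates and promoters are from RefSeq on GRCm38.p6, where 34 of the 35 genes had a promoter (not Slc2a3).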

Additional observations from a re-analysis of the deposited data

Results flagged for a closer look

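For 2 genes the difference of MHC I high from MHC I low cells changed between Sharpin cpdm and WT mice when the interaction itself was tested. For Hk1 the difference was −0.28 on the log2 scale (limma, adjusted p = 0.0148). Its call was lost in 8 of 17 alternative analyses, with adjusted p-values of 0.016 to 0.151 over all of them. For Ldhb the difference was −0.31 (adjusted p = 0.0456), and its call was lost in 13 of 17 alternatives, with adjusted p-values of 0.0333 to 0.322.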

How the results depend on the processing

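Of 97 calls of the 35 genes over the 11 comparisons, 51 were kept in every alternative, 46 were lost in at least 1, and 0 changed direction. The numbers called between fractions stayed within 1.5 times the reported ones in every alternative. Between genotypes they did not, and the cause was not tested. The shares of all genes called under the alternatives are not given here. In MHC I low cells the 2 calls in Hoil ΔCd4 against WT became 4 with DESeq2, which in simulated counts made a larger share of false calls than limma or edgeR, and 1 without the filter on low counts, and the 8 in Sharpin cpdm against WT became 13 with Xist as a covariate. In MHC I high cells the 4 calls in Hoil ΔCd4 against WT became 0 with edgeR, DESeq2, no filter or no weights. The 4 in Sharpin cpdm against WT became 0 with edgeR or no weights and 1 with DESeq2 or no filter, and the 2 between the mutants became 1 with each of these. The 2 calls in the Sharpin cpdm interaction became 0 with edgeR, DESeq2 or no filter, 1 with library size scaling or no weights, and 4 with Xist as a covariate. Without the replicate block for the mouse they became 0, and with the mouse as a fixed effect 4. The block moved no other count by more than 1.5 times.

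With each mouse left out in turn, the numbers called in MHC I low cells were 0 to 3 in Hoil ΔCd4 and 3 to 8 in Sharpin cpdm against WT, and 5 to 9 between the mutants. In MHC I high cells they were 0 to 4, 0 to 4 and 0 to 3. In Hoil ΔCd4 MHC I low cells 0 were called without Hoil ΔCd4 mouse 2 or 3. For the interactions they were 0 to 1 in Hoil ΔCd4 (1 without WT mouse 2) and 0 to 3 in Sharpin cpdm mice (0 without WT mouse 2, WT mouse 3 or Sharpin cpdm mouse 3). Between fractions they were 15 to 20 in WT, 18 to 21 in Hoil ΔCd4 and 21 to 25 in Sharpin cpdm mice. Each group held 3 mice, and Aldoc had too few reads for a firm statement.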
